A study of Mus musculus with 16 samples.

Results

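Liver transcripts of mature LERKO mice, in which oestrogen receptor alpha was deleted in the liver, were compared with those of mature control mice. The samples were chosen by their group labels alone, Mat.LERKO and Mat.Con, 4 libraries each, which makes 8 of the 16 libraries of the series. Each library came from the liver of 1 mouse, so the spread between libraries is that between animals, together with that of dissection and library preparation. LERKO livers are labelled as carrying Cre and control livers as lacking it, and the design text calls the controls flox mice. The labels state neither the Cre driver, the deleted exon and the strain nor the sex and age of the animals. No group with Cre alone is labelled, so Cre and the deletion cannot be told apart. Mature is the stage label, and the labels do not say whether it refers to the knockout or to tissue collection. Of 35502 genes in the deposited table, 13379 had enough counts to be tested.

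Oestrogen receptor alpha, encoded by Esr1, is a nuclear receptor that binds oestradiol and then acts as a transcription factor at its target genes, with coactivators such as Ncoa6 and corepressors such as Nrip1. In liver it is found in hepatocytes and is known for roles in lipid and glucose metabolism and in the synthesis of secreted proteins. Liver tissue also holds endothelial, stellate, Kupffer and bile duct cells, whose transcripts are counted together with those of hepatocytes.

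Total counts of the 8 libraries ran from 18939782 to 23213905. Levels are given as CPM, counts scaled to a common library total after correction by TMM factors, which ran from 0.852 for LERKO library 4 to 1.07. Hepatocyte transcripts dominated every library, with albumin (Alb) at 92043, 98718, 90979.8 and 61709 CPM in the LERKO livers, against 106609, 83890.3, 93024 and 100623 CPM in the control livers. Libraries of both groups stood apart. LERKO library 4 had 436 genes more than 2-fold above and 619 genes more than 2-fold below the median of the other 3 LERKO libraries, among 12119 genes, while the other 7 libraries had 26 to 113 genes above and 25 to 173 below in their own groups. Its summed acute phase transcripts, which encode plasma proteins that hepatocytes secrete in inflammation, stood at 190396 CPM, against 32716 to 44235 CPM in the other 7 libraries. Control libraries 1 and 2 held 1209 and 538 CPM of summed skeletal muscle transcripts, against 26.7 to 122 CPM in the other 6. Results are given with and without these 3 libraries.

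**Figure D1:**
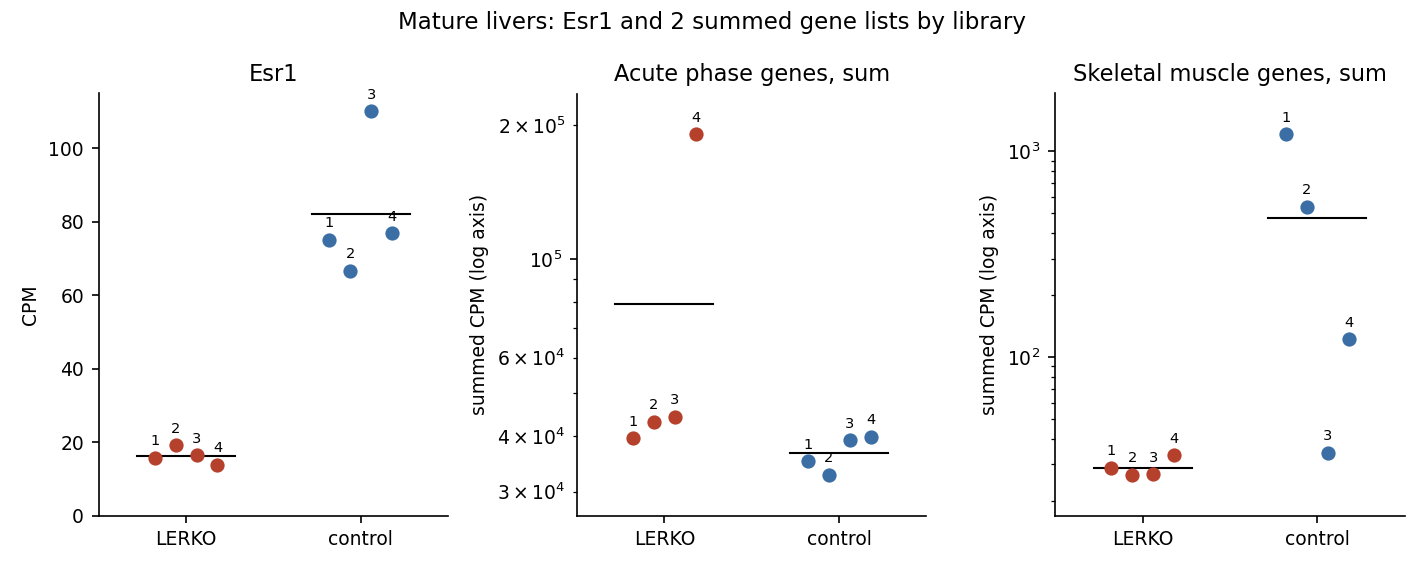
CPM of Esr1 and summed CPM of the acute phase and skeletal muscle gene lists in the 4 LERKO and the 4 control libraries. Points are single livers, numbered by library, lines are group means, and the axes of the summed lists are logarithmic. All LERKO points of Esr1 lie at 19.1 CPM or less and all control points at 66.7 CPM or more, while LERKO library 4 stands alone at 190396 CPM of acute phase transcripts and control libraries 1 and 2 lead in muscle transcripts.

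Esr1 was the single gene that passed the threshold, an adjusted p of 0.05 over all 13379 genes in edgeR's quasi-likelihood test, which is 0.00747% of those tested. It was measured at 15.8, 19.1, 16.4 and 13.9 CPM in the LERKO livers, against 75, 66.7, 110.1 and 76.9 CPM in the control livers, and the highest LERKO value lies well below the lowest control value. The means were 16.3 ± 2.19 CPM in LERKO and 82.2 ± 19.1 CPM in controls (SD, n = 4 each). Esr1 fell by 2.33 on the log2 scale (SE 0.19, adjusted p = 1.57e-05, edgeR), with a 95% interval of -2.73 to -1.94. The gene (ENSMUSG00000019768) spans chr10:4611593-5005614 on the forward strand of GRCm38, and counts per gene can include reads from exons outside the deletion. Without LERKO library 4 the log2 fold change was -2.23, without control libraries 1 and 2 it was -2.52, and without all 3 it was -2.45, with adjusted p-values of 0.000164, 0.0000795 and 0.000561 in edgeR.

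Of 26 tested genes for steroid and other nuclear receptors, Esr1 included, 11 had positive and 15 negative fold changes, and their median log2 fold change was -0.06, against -0.01 for all tested genes. Besides Esr1, 1 of them had an unadjusted p below 0.05 in edgeR, against 7.3% of all tested genes. That was Nr0b2, the small heterodimer partner that represses bile acid synthesis, at 36.2, 27.3, 13.5 and 23.2 CPM in the LERKO livers, against 33.5, 69.3, 47.6 and 29.1 CPM in the control livers, where the groups overlap (log2 fold change -0.84, SE 0.34, adjusted p = 0.645, edgeR). Without control library 2 its log2 fold change was -0.54. The hepatocyte regulator Hnf4a stood at 842, 1120.1, 1001 and 754 CPM in the LERKO livers, against 638, 759, 917 and 877 CPM in the control livers. For Rxra, the shared partner of many nuclear receptors, the values were 549.8, 592, 468 and 537 CPM in the LERKO livers, against 494, 469, 538 and 531 CPM in the control livers. Both sets of values overlap between the groups, with log2 fold changes of 0.22 (SE 0.17) for Hnf4a and 0.08 (SE 0.12) for Rxra.

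Of 21 tested genes reported as oestrogen-responsive in liver, 10 had positive and 11 negative fold changes, with a median of -0.02 that was 0.07 without LERKO library 4. None of them passed the threshold. At an unadjusted p below 0.05 in edgeR 2 were lower, Susd4 and Nr0b2, against 3.85% of all tested genes. Nr0b2 is the same gene as in the list of nuclear receptors. Susd4, a regulator of complement, stood at 1.422, 0.717, 1.12 and 0.592 CPM in the LERKO livers, against 6.24, 1.72, 0.938 and 2.36 CPM in the control livers, with control library 1 above all others and LERKO libraries 1 and 3 above control library 3. Agt, the precursor of angiotensin, stood at 978, 1021, 927 and 999 CPM in the LERKO livers, against 890.1, 856, 968 and 792 CPM in the control livers, a log2 fold change of 0.16 (SE 0.15) with overlapping groups.

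Beyond Esr1 no gene passed in either direction in edgeR, while 976 genes (7.3%) had an unadjusted p below 0.05, 461 higher (3.45%) and 515 lower (3.85%) in LERKO. The 4 LERKO values lay all above or all below the 4 control values for 522 genes (3.9%), 215 higher (1.61%) and 307 lower (2.29%). The genes described next have the smallest p among these 522 whose average log2 CPM was 0 or more. None of them other than Esr1 passed, and each of the others has an adjusted p of 0.481 in edgeR with all libraries. Since the rule required groups without overlap, that they do not overlap is no finding.

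Of the 10 genes chosen as higher in LERKO, 3 encode enzymes of small molecules. Btd, the enzyme that frees biotin for reuse, stood at 79.9, 85.7, 94.5 and 94 CPM in the LERKO livers, against 58.4, 70.3, 64.8 and 66.8 CPM in the control livers, a log2 fold change of 0.44 (SE 0.10). The gene lies at chr14:31641028-31668579 on the forward strand, and its exons overlap those of Hacl1 on the other strand. Hacl1, a peroxisomal enzyme of fatty acid alpha-oxidation named here after its values were seen, stood at 306, 369, 490.4 and 367 CPM in the LERKO livers, against 202, 277, 234 and 242 CPM in the control livers, also without overlap, with a log2 fold change of 0.68 (SE 0.20). Reads of the pair can be told apart only if the counting used strand, which no label or header states. Acnat2, an enzyme that joins fatty acids to amino acids, stood at 64.3, 103, 157 and 121 CPM in the LERKO livers, against 34.5, 62.1, 57.5 and 39 CPM in the control livers (log2 fold change 1.21, SE 0.29). Sult3a2, a sulfotransferase of low abundance, stood at 1.32, 1.01, 0.659 and 8.94 CPM in the LERKO livers, against 0.254, 0.558, 0.268 and 0.21 CPM in the control livers, with LERKO library 4 far above the others. Its log2 fold change was 3.17 (SE 0.76) with all libraries and 1.64 without LERKO library 4. Acnat2 and Sult3a2 have close paralogs, and no label or header states how the authors' counting divided shared reads.

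Another 3 act on transcription. Ncoa6, a coactivator of nuclear receptors, stood at 28.9, 36.1, 32.3 and 33.7 CPM in the LERKO livers, against 23.1, 23.2, 27.4 and 27 CPM in the control livers, a log2 fold change of 0.38 (SE 0.09). Helz2, a helicase described as a coactivator of PPAR receptors, stood at 83.8, 115, 113 and 110.4 CPM in the LERKO livers, against 69.9, 73.4, 80.5 and 77 CPM in the control livers, a log2 fold change of 0.49 (SE 0.11). Onecut2, a hepatocyte transcription factor of the HNF6 family, stood at 96, 141, 170.0 and 131 CPM in the LERKO livers, against 85.3, 79.5, 89.6 and 95 CPM in the control livers, a log2 fold change of 0.62 (SE 0.15). In each of the 3 genes LERKO library 1 is the lowest of its group and lies close to the highest control.

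The remaining 4 genes differ in kind. Fam84b, on the reverse strand at chr15:60818994-60853778, stood at 27.4, 58.2, 69.2 and 33.6 CPM in the LERKO livers, against 16.3, 24.2, 21.2 and 21.7 CPM in the control livers, and LERKO libraries 2 and 3 lead (log2 fold change 1.17, SE 0.26). Its exons overlap 9930014A18Rik on the other strand. Lrfn3, a synaptic adhesion protein of the leucine-rich repeat family, stood at 4.11, 4.64, 4.82 and 6.52 CPM in the LERKO livers, against 1.68, 3.58, 2.37 and 2.52 CPM in the control livers (log2 fold change 0.98, SE 0.23). Rai14, an actin-associated protein, stood at 22.6, 30.0, 33.8 and 28.8 CPM in the LERKO livers, against 17.8, 19, 22.3 and 15.9 CPM in the control livers (log2 fold change 0.62, SE 0.15). Steap4, a metalloreductase and a member of the acute phase list, stood at 142, 136, 199 and 252 CPM in the LERKO livers, against 96.8, 97.1, 103 and 133 CPM in the control livers (log2 fold change 0.76, SE 0.19), with LERKO library 4 highest. Without the 3 libraries its log2 fold change was 0.43.

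**Figure D2:**
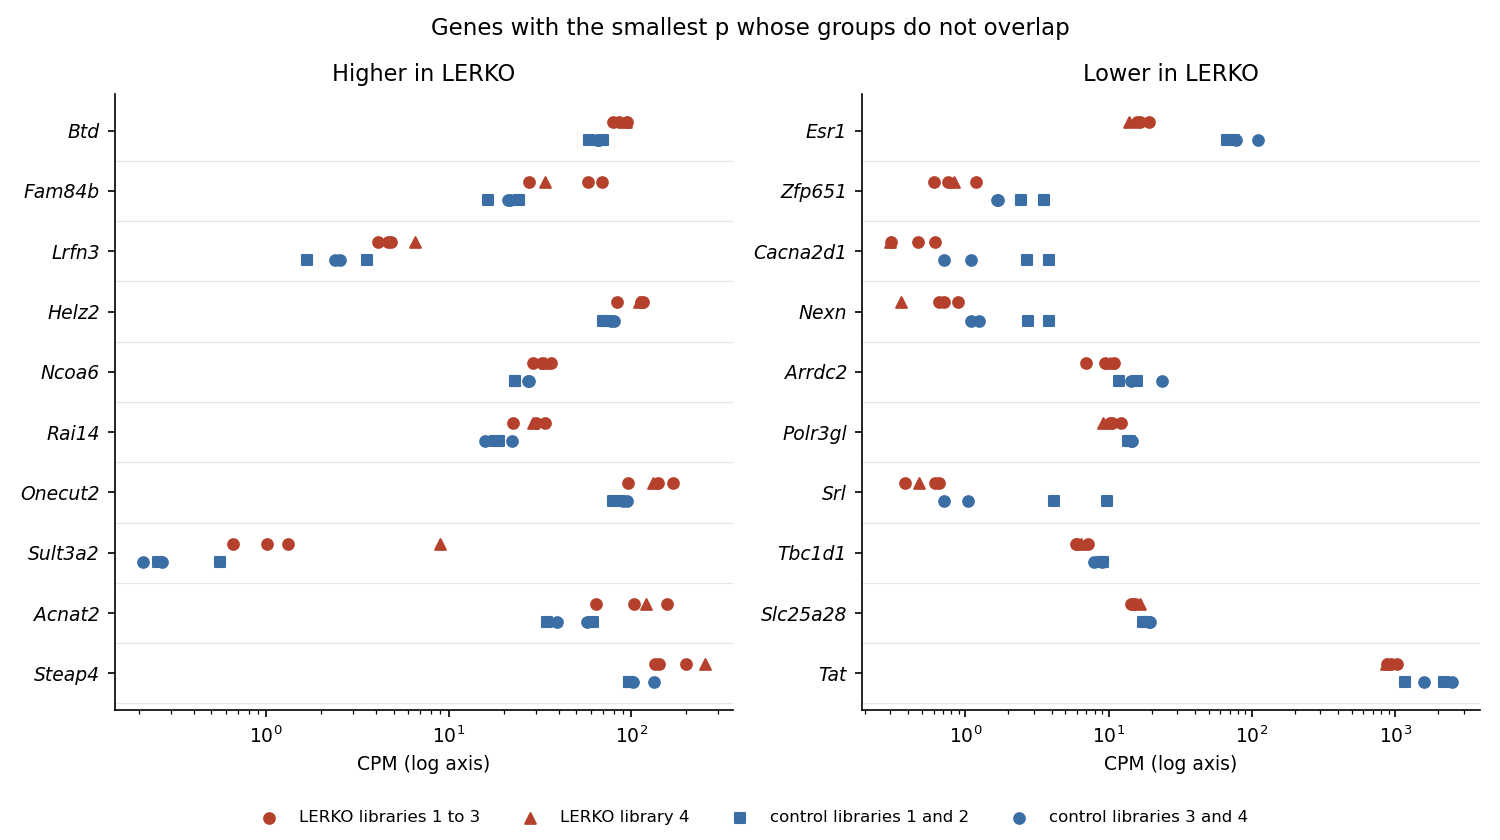
CPM on a logarithmic axis of the 10 genes chosen in each direction, with LERKO livers above control livers in each row. Points are single livers, with LERKO library 4 as triangles and control libraries 1 and 2 as squares. Of the genes lower in LERKO, Cacna2d1, Nexn and Srl have their 2 highest values in control libraries 1 and 2, at 2.70 CPM or more.

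Among the genes chosen as lower in LERKO, besides Esr1, Tat had the highest level. This enzyme, which starts tyrosine breakdown and is a classic target of glucocorticoids in liver, stood at 1023, 931, 879 and 858 CPM in the LERKO livers, against 2188, 1172, 2478 and 1601 CPM in the control livers. All 4 LERKO values are close together, while control values spread over a wide range. Its log2 fold change was -1.01 (SE 0.28) with all libraries and -1.11 (SE 0.34) without the 3 libraries. Arrdc2, an arrestin-domain protein, stood at 10.9, 9.36, 6.9 and 10.2 CPM in the LERKO livers, against 11.8, 15.8, 14.4 and 23.6 CPM in the control livers (log2 fold change -0.81, SE 0.21). Tbc1d1, which restrains the movement of glucose transporters to the cell surface, stood at 7.16, 6.03, 5.88 and 6.4 CPM in the LERKO livers, against 9.19, 8.97, 9.02 and 7.91 CPM in the control livers (log2 fold change -0.46, SE 0.12). In Tat, Arrdc2 and Tbc1d1 the gap between the groups is narrower than the range within controls. Slc25a28, a mitochondrial iron importer, stood at 14.3, 14.8, 15.3 and 16.6 CPM in the LERKO livers, against 18.3, 17.3, 19.3 and 19.2 CPM in the control livers, the smallest change of the 10 genes (log2 fold change -0.28, SE 0.08). Polr3gl, a subunit of RNA polymerase III, stood at 12.2, 10.3, 10.5 and 9.12 CPM in the LERKO livers, against 13.7, 14.1, 14.3 and 14.5 CPM in the control livers (log2 fold change -0.43, SE 0.11). Zfp651, a zinc finger protein, stood at 0.762, 1.18, 0.609 and 0.829 CPM in the LERKO livers, against 3.55, 2.46, 1.65 and 1.68 CPM in the control livers (log2 fold change -1.45, SE 0.30), with the 2 highest values in control libraries 1 and 2. Without those 2 libraries its log2 fold change was -0.97.

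Cacna2d1, Nexn and Srl are known from striated muscle, and their values moved with the muscle transcripts of the controls. Srl, a calcium-binding protein of the sarcoplasmic reticulum, stood at 0.609, 0.38, 0.659 and 0.474 CPM in the LERKO livers, against 9.7, 4.18, 0.715 and 1.05 CPM in the control livers. Control libraries 1 and 2 are far above the other 6, and control library 3 is just above the highest LERKO library. Cacna2d1, a subunit of voltage-gated calcium channels, stood at 0.609, 0.464, 0.304 and 0.296 CPM in the LERKO livers, against 3.86, 2.7, 0.715 and 1.09 CPM in the control livers. Nexn, an actin-binding protein of the sarcomere, stood at 0.66, 0.886, 0.71 and 0.355 CPM in the LERKO livers, against 3.81, 2.74, 1.251 and 1.09 CPM in the control livers. With all libraries the log2 fold changes were -2.86 (SE 0.73), -2.28 (SE 0.52) and -1.73 (SE 0.42) in that order, and without control libraries 1 and 2 they were -0.74, -1.09 and -0.82. Summed skeletal muscle transcripts were 28.9, 26.7, 26.9 and 33.2 CPM in LERKO and 1209, 538, 34.1 and 122 CPM in controls, and their part in these genes was not tested further.

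**Figure D3:**
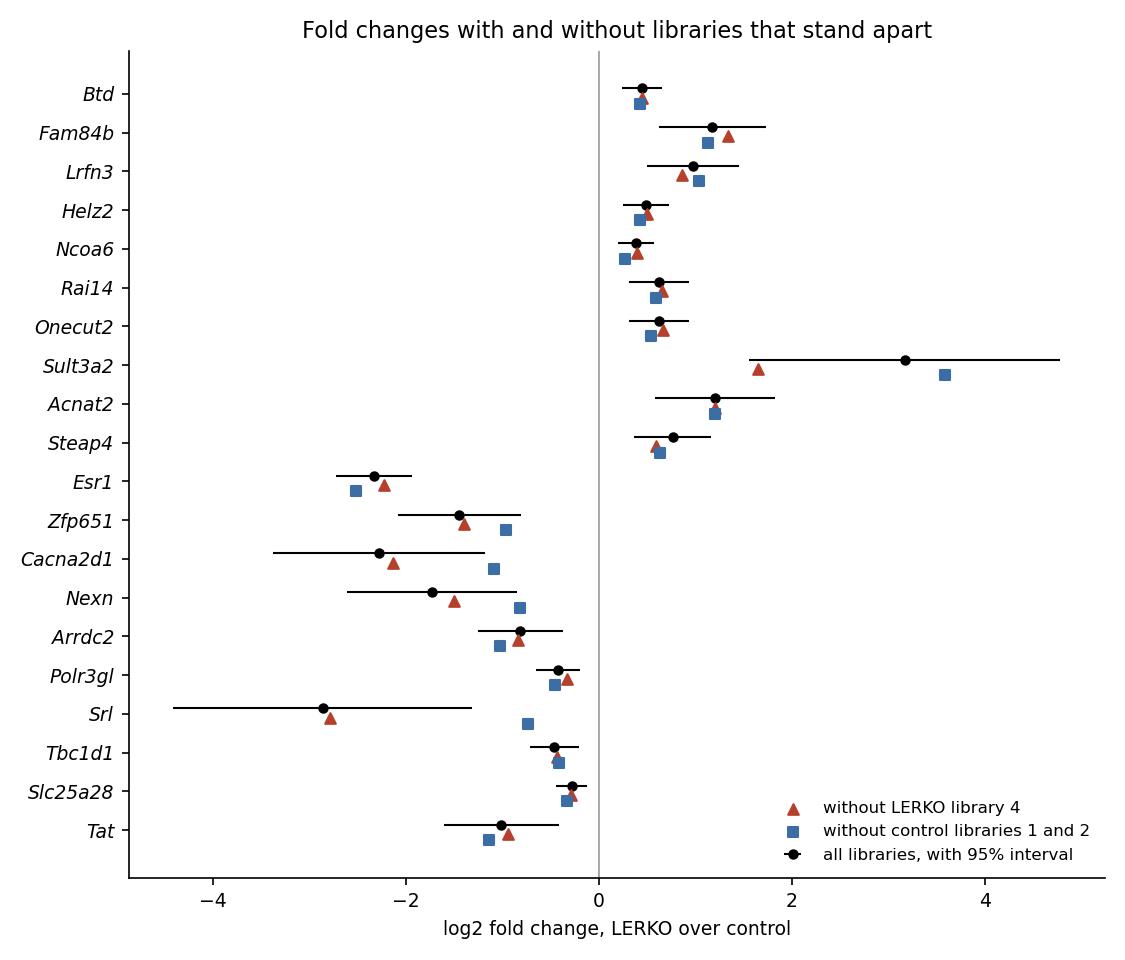
Log2 fold changes of LERKO over control for the genes chosen in each direction, with all libraries (black, 95% interval), without LERKO library 4 (triangles) and without control libraries 1 and 2 (squares). Esr1 stays between -2.52 and -2.23, Srl moves to -0.74 without control libraries 1 and 2, and Sult3a2 moves to 1.64 without LERKO library 4.

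With DESeq2 in place of edgeR, 27 genes passed an adjusted p of 0.05 (0.202%), 13 higher (0.0972%) and 14 lower (0.105%) in LERKO. These shares are of all 13379 genes. DESeq2 does not give every gene an adjusted p, and Hpx, which had none with all libraries, could not pass. The 13 higher genes were the 10 above with Tgm1, Cxcl1 and Nt5e. Tgm1, a transglutaminase that crosslinks proteins, stood at 18.4, 41, 38.8 and 52.2 CPM in the LERKO livers, against 14.6, 13.1, 16.2 and 21.6 CPM in the control livers, with LERKO library 1 below control library 4. Its log2 fold change was 1.20 (SE 0.26), with an adjusted p of 0.481 in edgeR and 0.0161 in DESeq2. Without LERKO library 1 it was the second gene to pass in edgeR (log2 fold change 1.424, adjusted p = 0.0238). Cxcl1, a chemokine that attracts neutrophils, stood at 70.6, 15.4, 15.9 and 84.4 CPM in the LERKO livers, against 13.6, 13.3, 10.7 and 16 CPM in the control livers, with LERKO libraries 1 and 4 high and the other 2 within the range of controls. Nt5e, the ectoenzyme CD73 that makes adenosine, stood at 19.5, 35.7, 46.8 and 54.7 CPM in the LERKO livers, against 16.4, 20.9, 13.1 and 16.1 CPM in the control livers, with LERKO library 1 below control library 2.

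Of the 14 lower genes in DESeq2, 5 were among those above, namely Esr1, Zfp651, Cacna2d1, Nexn and Srl. The other 9 were Myom2, Myl3, Slc25a4, Lmod2, Pkia, Tnni2, Eno3, Gm42417 and Ankrd23. Myom2, a protein of the sarcomere, was at 0 in all 4 LERKO libraries, against 4.16, 1.12, 0 and 1.26 CPM in the controls. Myl3, a myosin light chain, was likewise at 0 in LERKO, against 4.11, 1.77, 0 and 1.68 CPM in the controls. Most of the 9 are known from striated muscle. Tnni2, the fast-muscle troponin I, stood at 0.0508, 0.127, 0.203 and 0 CPM in the LERKO livers, against 38.2, 18, 0 and 3.66 CPM in the control livers. Slc25a4, the ADP/ATP carrier of muscle mitochondria, stood at 5.23, 4.72, 4.87 and 5.92 CPM in the LERKO livers, against 30.6, 23.9, 7.95 and 5.34 CPM in the control livers, with control library 4 within the range of LERKO. Eno3, the muscle enolase, stood at 1.93, 2.28, 2.08 and 3.08 CPM in the LERKO livers, against 13.1, 6.83, 2.9 and 4.88 CPM in the control livers. Control libraries 1 and 2 have the 2 highest values in 8 of these 9 genes, and in Myom2 control libraries 1 and 4 do. The predicted gene Gm42417 and Ankrd23, a muscle ankyrin-repeat protein, share exons on the same strand and cannot be taken as separate counts. Their log2 fold changes were -2.25 and -2.42 with all libraries, and 0.24 and 0.38 without control libraries 1 and 2. Of the 27 calls, Esr1 alone remained in DESeq2 without control libraries 1 and 2 or without all 3. In those fits DESeq2 gave no adjusted p for Myom2, Myl3 and Tnni2, so these genes could not pass. Without control libraries 1 and 2 their log2 fold changes were -28.4, -28.3 and -4.25 in DESeq2, and -6.69, -7.10 and -4.14 in edgeR. Since Myom2 and Myl3 were at 0 in all 4 LERKO libraries, the size of their fold changes is not measured. Control library 3 was also at 0 for all 3 genes.

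The count of called genes in edgeR was 1, Esr1, without LERKO library 4 (0.00738%), without control libraries 1 and 2 (0.00731%) and without all 3 (0.00734%). The count at an unadjusted p below 0.05 was 1189 (8.78%) without LERKO library 4, 725 higher (5.35%) and 464 lower (3.43%). It was 361 (2.64%) without control libraries 1 and 2, 177 higher (1.29%) and 184 lower (1.35%), and 408 (3%) without all 3, where 3 LERKO and 2 control libraries remain. Leaving out single libraries moved it to 572 without control library 1 and to 1516 without LERKO library 1. Of the 461 higher genes, 118 were also among the 191 (1.4%) higher without the 3 libraries, which is 25.6% of the first list and 61.8% of the second. Of the 515 lower genes, 96 were also among the 217 (1.59%) lower without the 3 libraries, or 18.6% and 44.2%.

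**Figure D4:**
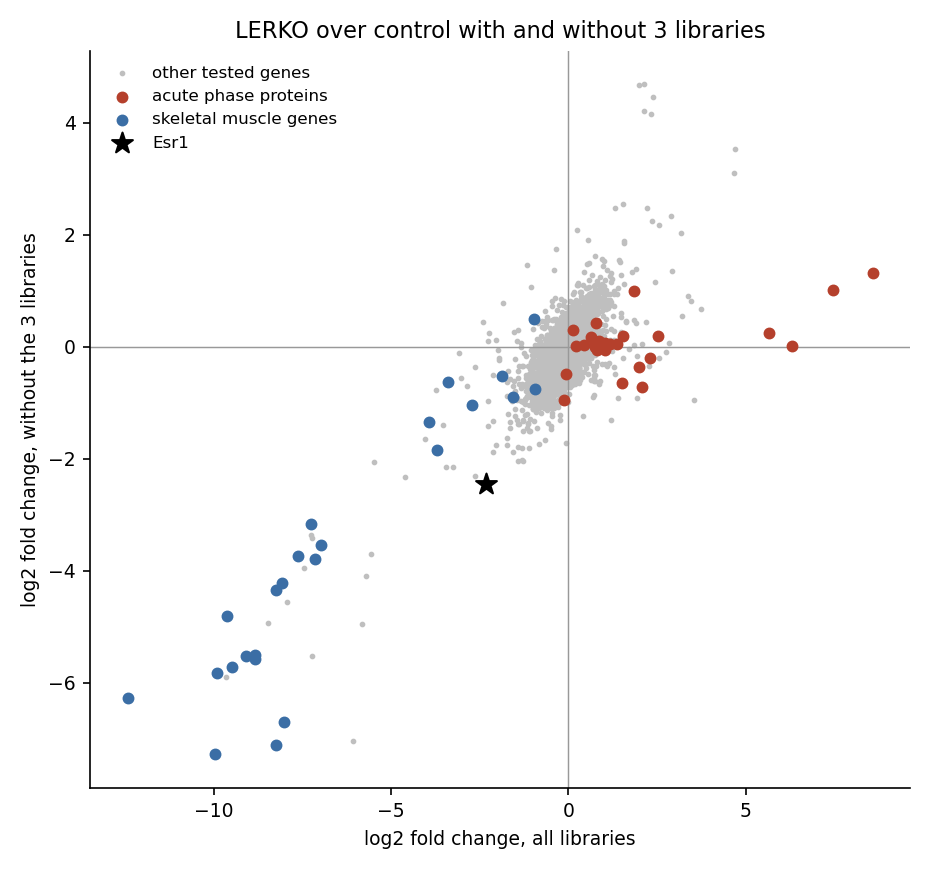
Log2 fold change of LERKO over control for each gene tested in both fits, with all libraries (x axis) and without LERKO library 4 and control libraries 1 and 2 (y axis). Grey points are genes outside the 2 lists, red points the acute phase genes, blue points the skeletal muscle genes and the star Esr1. Acute phase genes spread along the x axis, up to 8.57 for Saa2, while most of them lie nearer to 0 on the y axis, where Saa2 is at 1.32.

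The same rule, with p and average level taken from the fit without the 3 libraries, chose 8 genes in each direction. Its condition of no overlap still used all 8 libraries, so the choice is not independent of those 3. Those higher were Btd, Fam84b and Lrfn3, already described, with Sowahb, Hspa4l, Cldn1, Cdc27 and Zfp3. Cldn1, a tight junction protein, stood at 24.3, 29.6, 46.6 and 30.9 CPM in the LERKO livers, against 18.9, 17.7, 19.4 and 12.6 CPM in the control livers, and its log2 fold change was 1.06 (SE 0.35) without the 3 libraries. Hspa4l, a heat shock protein of the HSP110 family, stood at 19.7, 31.1, 44.2 and 18.7 CPM in the LERKO livers, against 18.1, 16.8, 17.6 and 16.3 CPM in the control livers, with LERKO libraries 2 and 3 above the rest (log2 fold change 0.90, SE 0.29, without the 3 libraries). Cdc27, a subunit of the anaphase-promoting complex, stood at 21.1, 21.2, 22.4 and 19.8 CPM in the LERKO livers, against 18, 17.8, 16.7 and 17.2 CPM in the control livers, each group in a narrow range (log2 fold change 0.35, SE 0.12, without the 3 libraries). Sowahb stood at 8.53, 7.09, 9.13 and 11.2 CPM in the LERKO livers, against 3.45, 7.07, 4.06 and 5.34 CPM in the control livers, with LERKO library 2 and control library 2 nearly level. The zinc finger gene Zfp3 stood at 1.93, 1.56, 1.52 and 1.3 CPM in the LERKO livers, against 1.02, 1.02, 0.759 and 0.968 CPM in the control livers. None of these 8 passed without the 3 libraries (adjusted p = 0.999 each, edgeR).

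Those lower without the 3 libraries were Esr1, Tat, Arrdc2 and Slc25a28, with C3ar1, Papln, Klf15 and Lpin2, of which Esr1 alone passed (adjusted p = 0.999 for each of the others, edgeR). Klf15, a transcription factor that promotes amino acid breakdown and gluconeogenesis in liver, stood at 163, 159, 139.7 and 148 CPM in the LERKO livers, against 230.4, 163, 228 and 184 CPM in the control livers, a log2 fold change of -0.42 (SE 0.14) without the 3 libraries. Lpin2, a phosphatidate phosphatase of triglyceride synthesis, stood at 336, 236, 183 and 158 CPM in the LERKO livers, against 345, 365, 379 and 430.5 CPM in the control livers (log2 fold change -0.68, SE 0.24, without the 3 libraries). C3ar1, the receptor for the complement fragment C3a, stood at 1.47, 1.64, 1.4199 and 2.07 CPM in the LERKO livers, against 2.28, 2.32, 2.68 and 3.11 CPM in the control livers (log2 fold change -0.93, SE 0.27, without the 3 libraries). Papln, a matrix protein, stood at 2.18, 2.11, 1.98 and 0.474 CPM in the LERKO livers, against 4.32, 3.07, 3.53 and 3.62 CPM in the control livers, where LERKO library 4 is far below the rest (log2 fold change -0.77, SE 0.25, without the 3 libraries).

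DESeq2 without LERKO library 4 called 5 genes (0.0369%), Esr1, Fam84b, Myom2, Myl3 and Nrip1. Nrip1, a corepressor that binds oestrogen receptor and other nuclear receptors, is outside the rule for named genes and was chosen after its values were seen. It stood at 22.8, 25.2, 24.1 and 14 CPM in the LERKO livers, against 16.2, 16.7, 16.6 and 17.2 CPM in the control livers, so that LERKO libraries 1 to 3 lie above every control and LERKO library 4 lies below every control. The log2 fold change was 0.37 (SE 0.14) with all libraries and 0.56 without LERKO library 4, where the adjusted p was 0.121 in edgeR and 0.000461 in DESeq2.

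Acute phase genes had the highest median of the lists with at least 5 tested members. Of 28 tested members 26 had positive fold changes, with a median log2 fold change of 1.03, against 48.2% positive and a median of -0.01 among all tested genes. None passed in edgeR, and 20 were higher at an unadjusted p below 0.05, against 3.45% of all tested genes. LERKO library 4 held the highest of the 8 values for 27 of the 28, and for 25.7% of all tested genes. Without it the median was 0.17, without control libraries 1 and 2 it was 0.90, and without all 3 it was 0.05. The 20 members at an unadjusted p below 0.05 became 2 without LERKO library 4 and 0 without all 3. The shares of all genes higher in those fits were 5.35% and 1.4%.

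Serum amyloid A proteins, which join high-density lipoprotein in inflammation, had the widest range. Saa1 stood at 94.4, 25.5, 33.1 and 19031 CPM in the LERKO livers, against 33.7, 24.7, 24.6 and 25.6 CPM in the control livers. Saa2 stood at 49.6, 13.5, 13.9 and 19910.5 CPM in the LERKO livers, against 17.1, 14.9, 10.1 and 10.4 CPM in the control livers. In both genes LERKO library 4 is far above all others, and LERKO library 1 is the next highest. The log2 fold changes without LERKO library 4 were 0.93 (SE 0.506) for Saa1 and 0.99 (SE 0.55) for Saa2. Orm2, an alpha-1-acid glycoprotein, stood at 18.7, 7.84, 7.96 and 3674 CPM in the LERKO livers, against 15.6, 8.97, 14.2 and 8.46 CPM in the control livers. Lcn2, lipocalin 2, which binds bacterial siderophores, stood at 16.8, 10.8, 8.16 and 1519 CPM in the LERKO livers, against 7.16, 3.67, 6.61 and 13.3 CPM in the control livers. Both were chosen after their values were seen, and without LERKO library 4 their log2 fold changes were -0.02 and 0.65.

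LERKO library 4 was also the highest of the 8 for several abundant plasma proteins. Haptoglobin (Hp), which binds free haemoglobin, stood at 3272, 2592, 2297 and 17317 CPM in the LERKO livers, against 2026, 2052, 2209 and 2526 CPM in the control livers. Hemopexin (Hpx), which binds haem, stood at 3728, 3087, 3509 and 23319 CPM in the LERKO livers, against 3427, 2815, 3550.2 and 3121 CPM in the control livers. Complement C3 stood at 11829.8, 16865, 14588 and 29586 CPM in the LERKO livers, against 10883, 10988, 13106 and 12385 CPM in the control livers, and here LERKO libraries 2 and 3 also lie above every control. The 3 fibrinogen chains Fga, Fgb and Fgg reached 14864, 16079 and 10720.2 CPM in LERKO library 4, against at most 5450.2, 5192 and 4025 CPM in the other LERKO livers and at most 4653, 5169 and 3172 CPM in controls. Transferrin (Trf) stood at 18483, 18832, 18307 and 51568 CPM in the LERKO livers, against 18986, 16431, 18874 and 18131 CPM in the control livers, and its counts share exons on the same strand with Gm20425. Trf was listed among 11 acute phase proteins that fall in inflammation, of which 6 were positive, with a median of 0.05. LERKO library 4 held the highest of the 8 values for 4 of these 11 and the lowest for 4, against 25.7% and 24.8% of all tested genes.

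Promoters of Saa1, Orm2 and Lcn2 are shown because these genes stood far higher in LERKO library 4 than in the other 7 libraries and hold a C/EBP motif, bound by factors that drive acute phase transcription. The sequences are the 250 bases before the start in RefSeq on GRCm38.p6, 5′ to 3′ on the gene's strand, with the match to TTGCNNAA in capitals. They lie at chr7:46742981-46743230 on the reverse strand, chr4:63362199-63362448 on the forward strand and chr2:32387740-32387989 on the reverse strand.
Saa1: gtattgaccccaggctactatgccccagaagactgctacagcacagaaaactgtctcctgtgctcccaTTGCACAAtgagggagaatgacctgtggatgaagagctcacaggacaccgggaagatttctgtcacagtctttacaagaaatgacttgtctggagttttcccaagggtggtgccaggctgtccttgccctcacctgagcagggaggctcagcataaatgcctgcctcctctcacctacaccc
Orm2: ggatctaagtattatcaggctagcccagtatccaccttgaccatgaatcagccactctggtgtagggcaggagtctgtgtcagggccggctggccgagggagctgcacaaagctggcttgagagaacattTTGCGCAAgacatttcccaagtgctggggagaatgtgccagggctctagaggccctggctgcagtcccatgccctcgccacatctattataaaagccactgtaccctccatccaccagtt
Lcn2: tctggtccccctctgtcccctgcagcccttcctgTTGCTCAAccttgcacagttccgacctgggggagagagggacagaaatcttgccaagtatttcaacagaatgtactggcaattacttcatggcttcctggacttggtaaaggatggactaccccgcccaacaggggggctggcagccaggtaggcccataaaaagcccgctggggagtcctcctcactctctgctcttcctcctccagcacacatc
The window of Saa2, which lies beside Saa1 on the other strand, is 94.8% identical to that of Saa1 over 251 alignment columns, and shared reads of the genes may be divided between them. Searched on both strands of these windows, TTGCNNAA was found in 14 of 23 acute phase genes with a promoter in the table (60.9%), in 9.66% of 10237 tested genes and in 10.8% of all 27025 promoters. Saa1 and Saa2 are both among these 14 genes. The STAT motif TTCNNNGAA was found in 6 of the 23 (26.1%), in 7.42% of the tested genes and in 8.13% of all genes with a promoter. Of the genes whose groups did not overlap, 171 higher and 224 lower in LERKO had a promoter. Among these, TTGCNNAA was found in 8.772% of the higher and 8.929% of the lower genes. TTCNNNGAA was found in 7.602% and 7.589%, near the shares of all tested genes. A link of either motif to the knockout was not tested. A match to the letters is a description and does not show binding.

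Genes of IL-6 and STAT3 signalling, which drives acute phase transcription in hepatocytes, were positive in 10 of 18, with a median of 0.09, against 48.2% positive among all tested genes. At an unadjusted p below 0.05, 5 were higher and 1 lower, against 3.45% and 3.85% of all tested genes. Without LERKO library 4, 1 was higher and 1 lower, against 5.35% and 3.43% of all genes in that fit, and the median was 0.01. Stat3, the transcription factor itself, stood at 99.6, 120.0, 109 and 169 CPM in the LERKO livers, against 90.0, 81.8, 102 and 107 CPM in the control livers, with LERKO library 4 highest. Bcl3, an NF-kappaB cofactor, stood at 33.6, 45.9, 36.9 and 44.4 CPM in the LERKO livers, against 18.2, 25.5, 36.8 and 21.6 CPM in the control livers, with every value but that of control library 3 lower in controls than in LERKO. Nfkbia, the inhibitor of NF-kappaB, stood at 50.3, 49.3, 35.1 and 41.6 CPM in the LERKO livers, against 50.1, 52.3, 63 and 57 CPM in the control livers, with LERKO libraries 2 to 4 below every control and LERKO library 1 just above control library 1. Cebpb, a C/EBP factor of the acute phase, stood at 368, 246, 181 and 290.1 CPM in the LERKO livers, against 315, 222, 437 and 322 CPM in the control livers, without LERKO library 4 standing out. Summed neutrophil transcripts moved with the same library, at 8.12, 4.049, 4.51 and 110.5 CPM in LERKO and 7.46, 5.95, 11.9 and 3.07 CPM in controls. The calgranulins S100a8 and S100a9 reached 26.7 and 32.0 CPM in LERKO library 4, against at most 1.32 and 2.13 CPM in any of the other 7. Of 14 listed neutrophil genes 5 were tested, 4 of them with positive fold changes, and their part in the acute phase values was not tested.

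Skeletal muscle genes, which liver does not express as a rule, were negative in all 24 tested members, 23 of them at an unadjusted p below 0.05, against 3.85% of all tested genes. Control library 1 held the highest of the 8 values for all 24, and for 14.2% of all tested genes. The myosin heavy chain Myh4 was at 0 in every LERKO library, against 132, 4.93, 0 and 0.925 CPM in the controls. The muscle actin Acta1 stood at 0, 0.0844, 0.456 and 0 CPM in the LERKO livers, against 167, 79.8, 0.134 and 16.3 CPM in the control livers. Atp2a1, the calcium pump of the sarcoplasmic reticulum, stood at 0.0508, 0, 0.152 and 0 CPM in the LERKO livers, against 129, 45.6, 0 and 3.87 CPM in the control livers. Control library 3 has almost none of these transcripts and control library 4 holds few. Nebulin (Neb), which made up much of the sum in LERKO livers, stood at 17, 14.4, 10.6 and 23.6 CPM in the LERKO livers, against 57.3, 21.8, 19.9 and 27.4 CPM in the control livers. The median log2 fold change was -7.83, and -7.21 with the 4 genes at 0 in all LERKO libraries set to the bound that 3 counts over the LERKO group allow. It was -4.01 without the 3 libraries, where control library 4 with 122 CPM of summed muscle transcripts remains. The 23 genes at an unadjusted p below 0.05 became 4 of 24 without control libraries 1 and 2 and 1 of 24 without all 3. The shares of all genes lower in those fits were 1.35% and 1.59%. Fitted on the 8 mature libraries alone, 7 of the genes passed the filter on low counts, with a median of -1.86, and the same 7 had a median of -1.88 in the fit with all 16 libraries. The other members passed the filter only where the immature libraries were included. The count of 23 of 24 therefore depends on that filter and is no test of the list.

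Stellate cell and matrix genes had the lowest median of the lists other than muscle, at -0.59, with 25 of 25 negative, against 51.8% of all tested genes. Of these, 9 had an unadjusted p below 0.05 and 9 did not overlap between groups, all lower, against 3.85% and 2.29% of all tested genes. In bulk tissue, fewer cells of a type and less RNA per cell cannot be told apart. LERKO library 4 held the lowest of the 8 values for all 25, and for 24.8% of all tested genes. The summed levels were 712, 708, 596 and 218 CPM in LERKO and 965, 778, 768 and 844 CPM in controls, so the groups do not overlap. Leaving out LERKO library 4, the lowest of all, could not change that. The values nearest to each other are LERKO library 1 at 712 CPM and control library 3 at 768 CPM. The median was -0.30 without LERKO library 4 and -0.21 without all 3, and 1 of the 25 was lower at an unadjusted p below 0.05 in each of these fits. The shares of all genes lower in those fits were 3.43% and 1.59%. Biglycan (Bgn), a matrix proteoglycan, stood at 117, 115, 93.5 and 35.8 CPM in the LERKO livers, against 150.2, 115, 133 and 149 CPM in the control livers. There LERKO library 1 lies just above control library 2, and LERKO library 4 is far below the rest. Timp2, an inhibitor of matrix proteases, stood at 12.3, 11, 11.4 and 4.38 CPM in the LERKO livers, against 14.2, 16, 15.3 and 13.5 CPM in the control livers, without overlap. Desmin (Des), an intermediate filament of stellate cells that is also a muscle protein, stood at 5.84, 4.72, 6.79 and 1.72 CPM in the LERKO livers, against 30.9, 23.6, 7.01 and 9.55 CPM in the control livers, with the 2 highest values in control libraries 1 and 2.

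Endothelial genes were negative in 23 of 23 tested members, against 51.8% of all tested genes, with a median of -0.43. None had an unadjusted p below 0.05 in edgeR, against 7.3% of all tested genes. LERKO library 4 held the lowest value for 22 of the 23, and for 24.8% of all tested genes. The summed levels were 540.0, 516, 502 and 189.7 CPM in LERKO and 681, 618, 653 and 493 CPM in controls, so that control library 4 lies below 3 LERKO libraries. The median was -0.20 without LERKO library 4 and -0.10 without all 3. Stab2, a scavenger receptor of sinusoidal endothelium, stood at 39, 38.3, 28.4 and 32.3 CPM in the LERKO livers, against 48.6, 43, 54.4 and 37.7 CPM in the control livers, and LERKO library 4 is not the lowest there. 

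Kupffer cell and macrophage genes were positive in 7 of 20 tested members, against 48.2% of all tested genes, with a median of -0.08. None had an unadjusted p below 0.05 in edgeR with all libraries, against 7.3% of all tested genes. LERKO library 4 held the highest value for 12 of the 20, and for 25.7% of all tested genes. Without it the median was -0.28, with 16 negative and 2 lower at an unadjusted p below 0.05 (3.43% of all genes in that fit). Without all 3 libraries it was -0.42, with 17 negative and 3 lower (1.59% of all genes). T, B and NK cell genes were negative in 16 of 16, with a median of -0.27 and none at an unadjusted p below 0.05. Of all tested genes 51.8% were negative and 7.3% had such a p. For 15 of the 16 LERKO library 4 held the lowest value, against 24.8% of all tested genes. Their median was -0.05 without that library, with 6 positive and 10 negative, and 0.01 without all 3, with 8 in each direction. Cholangiocyte genes were negative in 6 of 10, against 51.8% of all tested genes, with a median of -0.16 that became 0.04 without control library 2.

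**Figure D5:**
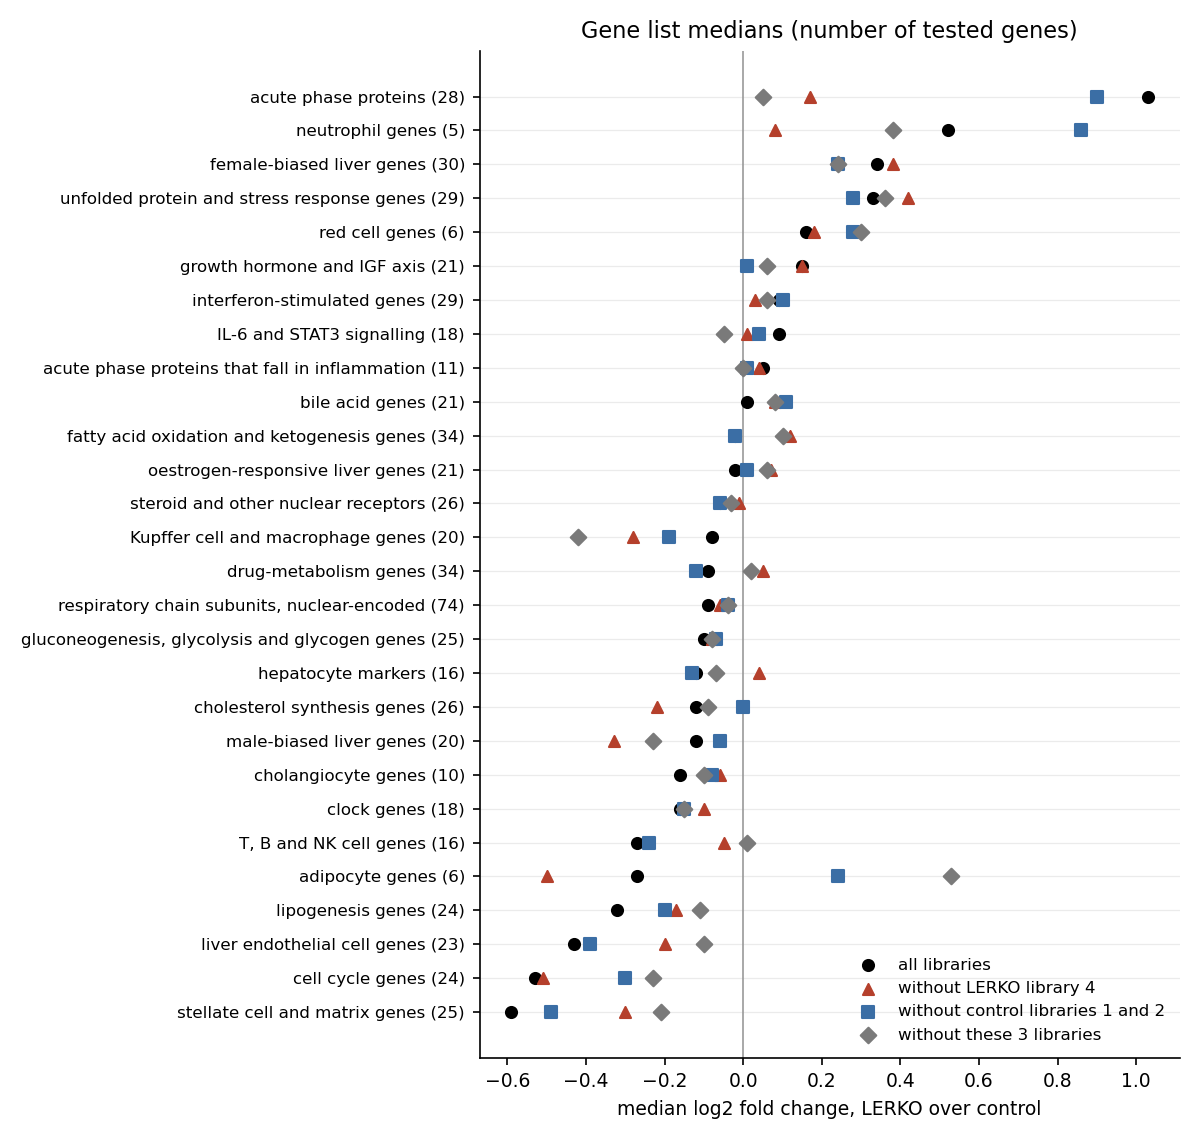
Median log2 fold change of LERKO over control for each gene list with at least 5 tested genes (number in brackets), skeletal muscle aside, with all libraries and with libraries left out. Lists run from the highest median with all libraries at the top to the lowest at the bottom. The acute phase median moves from 1.03 to 0.05 and the stellate median from -0.59 to -0.21 when the 3 libraries are left out, while that of unfolded protein genes lies between 0.28 and 0.42.

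Unfolded protein and stress response genes encode chaperones and enzymes of the endoplasmic reticulum and their regulators. They were positive in 22 of 29 tested members, against 48.2% of all tested genes, with a median of 0.33. None passed, and at an unadjusted p below 0.05 in edgeR 11 were higher and 2 lower, against 3.45% and 3.85% of all tested genes. Without the 3 libraries the median was 0.36, with 4 higher and 1 lower, against 1.4% and 1.59%. LERKO library 3 held the highest value for 20 of the 29, against 15.9% of all tested genes, and without that library the median was 0.18. The median was 0.50 without control library 4. The summed levels were 4046, 6389, 8057 and 4567 CPM in LERKO and 4126, 4299, 4284 and 4994 CPM in controls, with LERKO libraries 2 and 3 high, LERKO library 4 within the range of controls and LERKO library 1 just below it. Sdf2l1, a chaperone cofactor, stood at 6.8, 23, 52.1 and 28.4 CPM in the LERKO livers, against 8.73, 8.32, 8.35 and 14.1 CPM in the control livers, with LERKO library 1 the lowest of all 8. Calr, the chaperone calreticulin, stood at 482, 654, 907 and 925 CPM in the LERKO livers, against 551, 507, 454 and 587 CPM in the control livers, and LERKO library 1 is within the range of controls. Derl3, a protein of the degradation pathway of the endoplasmic reticulum, chosen after its values were seen, stood at 1.68, 3.29, 5.48 and 1.422 CPM in the LERKO livers, against 1.02, 1.07, 1.12 and 0.799 CPM in the control livers without overlap. Trib3, a pseudokinase induced by ATF4, went the other way, at 3.91, 3.63, 1.88 and 4.32 CPM in the LERKO livers, against 8.17, 4.18, 6.07 and 6.48 CPM in the control livers (log2 fold change -0.86, SE 0.23).

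Female-biased liver genes were positive in 21 of 30, with a median of 0.34, 5 higher and 0 lower at an unadjusted p below 0.05 in edgeR, against 48.2% positive, 3.45% higher and 3.85% lower among all tested genes. Without the 3 libraries 24 of 30 were positive, 0 had an unadjusted p below 0.05 (3% of all genes in that fit), and the median was 0.24. The median was 0.14 without LERKO library 2 and 0.20 without control library 1. Cyp3a16, a cytochrome P450, stood at 7.92, 52.4, 3.14 and 202 CPM in the LERKO livers, against 1.07, 5.48, 3.62 and 0.0841 CPM in the control livers. LERKO libraries 2 and 4 are high, and LERKO library 3 lies within the controls. Its reads may be shared with close paralogs of the Cyp3a cluster. Cyp2a4, a steroid hydroxylase, stood at 1092, 1172, 743 and 1090.2 CPM in the LERKO livers, against 1387, 1028, 1341 and 995 CPM in the control livers, with overlapping groups. Of the male-biased genes 12 of 20 were negative, with a median of -0.12. That median was -0.33 without LERKO library 4, with 16 of 21 negative, and 0.05 without control library 1, so its sign rests on single libraries. Among them C8a, a chain of the complement attack complex, stood at 168, 183, 104 and 1092 CPM in the LERKO livers, against 246, 86.6, 227 and 144 CPM in the control livers, with LERKO library 4 far above the rest.

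Genes of gluconeogenesis, glycolysis and glycogen had a median of -0.10, with 16 of 25 negative and 4 lower at an unadjusted p below 0.05, against 51.8% and 3.85% of all tested genes. Without the 3 libraries 4 were lower as well, against 1.59% of all genes in that fit, with a median of -0.08. Tat, described above, is a member of this list and 1 of the 4 lower genes in both fits. The groups did not overlap for 1 higher and 2 lower members, against 1.61% and 2.29% of all tested genes. Pck1, which commits carbon to gluconeogenesis, stood at 2961, 2222, 2223 and 2303 CPM in the LERKO livers, against 4162, 2319.9, 3900.3 and 3819 CPM in the control livers, with control library 2 below LERKO library 1. Its log2 fold change was -0.55, SE 0.20 (adjusted p = 0.566, edgeR). Ppp1r3g, a subunit that directs a phosphatase to glycogen, stood at 39, 4.13, 3.85 and 1.24 CPM in the LERKO livers, against 114, 30.4, 132 and 22.2 CPM in the control livers, with a log2 fold change of -2.63 (SE 0.89). LERKO library 1 is far above the rest of its group, and without it the log2 fold change was -4.57 (SE 0.835, adjusted p = 0.0972, edgeR). Clock genes had a median of -0.16 with 13 of 18 negative, which was -0.10 without LERKO library 3 and -0.25 without LERKO library 2. At an unadjusted p below 0.05 in edgeR 2 were higher and 3 lower, against 3.45% and 3.85% of all tested genes. The groups did not overlap for 2, both lower, against 2.29%. The 2 higher members, Clock and Arntl, run against the median of the list. Clock, a core activator of the circadian clock, stood at 15.3, 23.9, 33.8 and 21.4 CPM in the LERKO livers, against 14.1, 12.8, 15.5 and 15.6 CPM in the control livers, with LERKO library 1 below control libraries 3 and 4. Its partner Arntl stood at 0.914, 3.29, 16.3 and 1.07 CPM in the LERKO livers, against 0.914, 1.26, 1.47 and 0.968 CPM in the control livers, with LERKO library 3 far above the others.

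Cell cycle genes had a median of -0.53, with 21 of 24 negative and 5 lower at an unadjusted p below 0.05, against 51.8% and 3.85% of all tested genes. Control library 1 held the highest value for 19 of the 24, against 14.2% of all tested genes, and without that library the median was -0.21. Without control libraries 1 and 2, and without all 3, 0 of 25 were lower at an unadjusted p below 0.05, with medians of -0.30 and -0.23. The shares of all genes lower in those fits were 1.35% and 1.59%. Cdc20, an activator of the anaphase-promoting complex, stood at 0.355, 0.295, 0.304 and 0.415 CPM in the LERKO livers, against 1.57, 0.697, 0.581 and 0.673 CPM in the control livers, with control library 1 far above the rest. Foxm1, a transcription factor of the G2 and M phases, stood at 0.508, 0.633, 0.304 and 0.474 CPM in the LERKO livers, against 1.32, 0.697, 0.625 and 1.01 CPM in the control livers, and its exons overlap other genes on the same strand. Ccnd1, cyclin D1, the most abundant member, stood at 143, 146, 95.9 and 131 CPM in the LERKO livers, against 138, 152, 139 and 173 CPM in the control livers, with overlapping groups.

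Lipogenesis genes had a median of -0.32, with 20 of 24 negative and 1 lower at an unadjusted p below 0.05, against 51.8% and 3.85% of all tested genes. LERKO library 4 held the lowest value for 16 of the 24, and for 24.8% of all tested genes. Without it the median was -0.17 with 0 lower (3.43% of all genes in that fit), and without all 3 it was -0.11. Scd1, the stearoyl-CoA desaturase, stood at 5799, 1694, 6037 and 6344 CPM in the LERKO livers, against 7081, 8083, 5803 and 9497 CPM in the control livers, with LERKO library 2 the lowest of all. Lpin1, a phosphatidate phosphatase, stood at 267, 284, 265 and 221 CPM in the LERKO livers, against 464, 227, 253 and 885 CPM in the control livers, where control libraries 2 and 3 lie within the range of LERKO. Cholesterol synthesis genes had a median of -0.12, which ran from -0.26 without control library 3 to -0.05 without control library 1. Of the fatty acid oxidation and ketogenesis genes 15 of 34 were positive (median -0.02). LERKO library 4 was the lowest for 23 of them, against 24.8% of all tested genes. Leaving it out gave 28 of 34 positive (median 0.12). Ppara, the receptor that drives fatty acid oxidation, stood at 210.4, 198, 112 and 121 CPM in the LERKO livers, against 182, 159.8, 209 and 175 CPM in the control livers, with LERKO libraries 3 and 4 below every control. Nuclear-encoded respiratory chain subunits were negative in 73 of 74, against 51.8% of all tested genes, with a median of -0.09. None had an unadjusted p below 0.05, against 7.3% of all tested genes. LERKO library 2 held the lowest value for 55 of the 74 and control library 2 the highest for 41, against 15.9% and 11.2% of all tested genes. Without LERKO library 2 the median was -0.04, and without the 3 libraries it was also -0.04, with 56 of 74 negative. Scaled by library size alone their median was -0.15, where that of all genes was -0.08. Atp5b, from the catalytic core of ATP synthase, was measured at 1085, 1107, 1086 and 893 CPM in the LERKO livers, against 1080.4, 1075, 1146 and 1128 CPM in the control livers, with LERKO library 4 lowest. Interferon-stimulated genes had a median of 0.09 (0.03 without LERKO library 4), bile acid genes 0.01 (0.08 without it), drug-metabolism genes -0.09 (0.05 without it) and genes of the growth hormone and IGF axis 0.15 (0.03 without LERKO library 2).

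The spread between livers set how small a difference could be measured. The common biological coefficient of variation was 21.2%. The 95% interval of the fold change lay within 2-fold in either direction for 81.2% of tested genes and within 1.5-fold for 58.5%. Without the 3 libraries these shares were 76.0% and 47.3%. A p that misses the threshold therefore does not show that a gene was equal in the groups. The difference between this knockout effect and that in immature mice did not pass for any of the 160 named genes (smallest adjusted p = 0.566, edgeR).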

How the data were processed

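The deposited table holds, per the file headers and values, 1 count per gene and library for 16 livers, not normalized by the authors. In 5 columns the deposited values count as estimated counts as the authors made them, since 10 values are not whole, and these were rounded. STAR, limma, R 4.05 and the build mm10 are named in the submitters' processing notes without their roles. No source used here names the counting program, its strand setting or the annotation. Per the labels' protocols, libraries were stranded and paired-end.

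Genes were kept by filterByExpr (minimum count 10, minimum total 15), which left 13379 of 35502, scaled by TMM and tested with edgeR 4.0.16 (glmQLFit, glmQLFTest, two-sided) in 1 model of all 16 libraries with 1 term per group, which pools the spread over the groups. Benjamini-Hochberg adjustment ran over all 13379 genes. Each SE is the absolute log2 fold change over the root of F. Total counts ran from 18123974 to 23213905 per library. Alternatives used DESeq2 1.42.0, limma 3.58.1, other scalings, filters and libraries left out. The fits were tested on simulated data.

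Named genes were Esr1, genes past the threshold, the 10 genes in each direction with the smallest p and no overlap, and DESeq2 calls. By p without the 3 libraries that stand apart, 8 in each direction were taken, again with no overlap over all 8 libraries. The most abundant and lowest-p members of 30 gene lists were added. Orm2, Lcn2, Nrip1, Hacl1 and Derl3 were chosen after their values were seen. The comparison, the lists and the rule were chosen with earlier results of these data known. Lists are described by counts and medians, with no test. Positions on GRCm38 (mm10) come from GENCODE vM21, where 35465 of 35502 identifiers matched. Of the genes named in the text, 27 share exonic bases with another gene, so reads could be counted for the wrong one. Promoters are from RefSeq. The values of 1 named gene are not reported here.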

Additional observations from a re-analysis of the deposited data

Results flagged for a closer look

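Within each group of 4 livers, a value was singled out when its distance from the nearest other value exceeded a ratio of 0.829 of the whole range. This was so in 35 of the 254 groups of values looked at, 21 of them in LERKO library 4. For 4 values from a normal distribution chance gives about 1 in 20 groups. CPM values need not follow that distribution, and many of the genes were chosen by p or after their values were seen. The share of 1 in 20 is therefore no baseline for these groups. Genes of 1 list are also not independent of each other.

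In LERKO library 4 the highest values of its group were those of Saa1 (19031 CPM), Saa2 (19910.5 CPM), Orm2 (3674 CPM), Lcn2 (1519 CPM), Hp (17317 CPM), Hpx (23319 CPM), Fga (14864 CPM), Fgb (16079 CPM), Fgg (10720.2 CPM), Itih4 (9245 CPM) and Trf (51568 CPM), with 190396 CPM for the summed acute phase genes. The same library was highest for S100a8 (26.7 CPM), S100a9 (32.0 CPM), summed neutrophil genes (110.5 CPM), C8a (1092 CPM) and Sult3a2 (8.94 CPM). It was the lowest of its group for Papln (0.474 CPM), Timp2 (4.38 CPM), Atp5b (893 CPM) and the summed endothelial genes (189.7 CPM).

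Other LERKO libraries were singled out for fewer genes. Library 1 was lowest for Helz2 (83.8 CPM) and highest for Pck1 (2961 CPM) and Ppp1r3g (39.0 CPM). Library 2 was lowest for Scd1 (1694 CPM). Library 3 was highest for Ankrd23 (1.98 CPM), Arntl (16.3 CPM) and Myh1 (0.101 CPM).

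Among controls, library 1 was highest for Saa1 (33.7 CPM), Myh4 (132 CPM) and Cdc20 (1.57 CPM). Control library 2 was highest for Sult3a2 (0.558 CPM). Control library 4 was highest for Steap4 (133 CPM) and Sdf2l1 (14.1 CPM) and lowest for Tbc1d1 (7.91 CPM).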

How the results depend on the processing

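No paired analysis was possible because the replicate numbers follow the order of the samples and pair no animals. The call of Esr1 was kept in each edgeR, DESeq2 and limma fit run, and its log2 fold change kept its sign. The number of called genes was 1 in edgeR and 27 in DESeq2, where leaving LERKO library 4 out gave 5; both DESeq2 fits without control libraries 1 and 2 gave 1. With single libraries left out the count was 1 to 2 and the number with an unadjusted p below 0.05 ran from 572 to 1516, with 361 without control libraries 1 and 2 and 408 without all 3. Fewer libraries remain in those fits, and the cause was not tested. Of 2388 fold changes of named genes recomputed in 15 settings, 2320 kept their sign, and 25 of 160 genes had another sign in at least 1 setting. Of 450 list medians recomputed, 24 in 13 lists moved by 1 SD between livers or more. Leaving out single mature libraries moved the median of 28 of 29 lists with at least 5 tested genes by over 1.5 times or to another sign, medians near 0 included, and the log2 fold change of 27 of the 81 genes named in the text that had an unadjusted p below 0.05. Depth limits genes with few counts, such as Sult3a2 and the muscle genes, most.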
